A study of Mus musculus with 24 samples.

Results

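The genes described here are the 236 protein-coding genes that start between 100 and 125 Mb of mouse chromosome 2, the stretch that holds Slc1a2, the gene of the glutamate transporter EAAT2. They were found by placing the Ensembl identifiers of the count files on GRCm38 and leaving out Slc1a2 and 5 other genes (Cd44, Bdnf, Chac1, Pdia3 and B2m). They are 236 of the 52636 identifiers counted, and 158 of them were abundant enough to be tested, among 19726 genes tested in all. The other 78 members summed to between 0 and 201 counts over all libraries, and 42 of them were at 0 in every library. No test was made for any of the 39 olfactory receptor genes among the members. Although the window lies mostly distal to Slc1a2, which starts at 102658659, it also takes in 10 members on the proximal side, 9 of them tested.

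The study sequenced total RNA from mouse brain in 4 groups of 6 mice. In the line with a synapsin-driven Cre, the groups were syn-Cre+ EAAT2-/- and syn-Cre- EAAT2+/+ mice, called here syn Cre-positive and syn Cre-negative. In the line with a GFAP-driven Cre, they were gfapCre+ EAAT2Δ/+ and gfap-Cre- EAAT2+/+ mice, called gfap Cre-positive and gfap Cre-negative. Both Cre-negative groups carry the same EAAT2 label, so a difference between them is a difference between lines and not of the labelled EAAT2 genotype. The labels do not say how many copies of the targeted allele these mice carried, so the lines may differ in that too. The labels give neither the strain of each line nor the age or sex of the mice, nor the brain region taken. The lines were compared as Cre-positive with Cre-positive and Cre-negative with Cre-negative mice, and these comparisons share no library. The Cre-positive comparison also sets EAAT2-/- against EAAT2Δ/+ and a synapsin-driven against a GFAP-driven Cre, which cannot be told apart from the line there. Below, genotype means Cre-positive or Cre-negative. Anything else that goes with a line, from breeding to library preparation, cannot be told apart from the line.

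As background, Cre recombinase deletes DNA between loxP sites, and a promoter limits where it acts: synapsin drives it in neurons and GFAP in astrocytes and their progenitors. EAAT2 clears glutamate from the synapse, and most of it in the forebrain is made by astrocytes, with a smaller share in axon terminals. When an allele made in embryonic stem cells of one strain is bred into another, DNA that flanks the allele on its chromosome travels with it, and variants in that flanking DNA can alter the expression of nearby genes. The question put to the window was whether its genes differed between lines or with genotype, and how such differences lay relative to Slc1a2.

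The genes that differed most clearly between lines are shown first by the DNA before their starts, since they bear most of what follows. Each sequence is the 250 bases before a RefSeq transcript start on GRCm38.p6, read 5′ to 3′ on the gene's own strand, and is the C57BL/6J reference and not the DNA of these mice. Capitals mark matches to a pair of promoter motifs searched on both strands. The first is the CCAAT box, which reads ATTGG where it lies on the other strand. The second is the GC box, spelled GGGCGG, or in reverse CCGCCC, and neighbouring boxes may overlap. Haus2 and Ivd had the smallest p values of the members that were lower in the syn line. Haus2 lies on the plus strand at chr2:120609132-120609381 and Ivd on the plus strand at chr2:118861744-118861993.
Haus2: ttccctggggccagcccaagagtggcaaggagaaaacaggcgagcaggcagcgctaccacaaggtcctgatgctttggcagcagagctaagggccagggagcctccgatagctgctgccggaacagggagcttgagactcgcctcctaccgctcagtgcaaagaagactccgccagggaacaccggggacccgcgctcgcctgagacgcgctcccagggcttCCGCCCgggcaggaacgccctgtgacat
Ivd: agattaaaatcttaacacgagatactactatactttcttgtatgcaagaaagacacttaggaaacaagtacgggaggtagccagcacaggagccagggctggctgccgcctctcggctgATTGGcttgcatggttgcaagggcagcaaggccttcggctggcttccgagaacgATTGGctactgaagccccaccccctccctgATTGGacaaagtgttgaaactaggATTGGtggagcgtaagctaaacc
Eif3j1 and Mfap1b, also lower in the syn line, each share long stretches of transcript sequence with a copy, Eif3j2 and Mfap1a. The Eif3j1 window is on the plus strand at chr2:122028330-122028579 and the Mfap1b window on the minus strand at chr2:121474024-121474273.
Eif3j1: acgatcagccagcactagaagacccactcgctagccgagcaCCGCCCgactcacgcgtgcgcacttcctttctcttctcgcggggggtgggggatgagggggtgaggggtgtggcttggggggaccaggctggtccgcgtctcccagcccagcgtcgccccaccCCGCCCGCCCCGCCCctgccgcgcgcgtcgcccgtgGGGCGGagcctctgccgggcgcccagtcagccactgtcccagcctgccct
Mfap1b: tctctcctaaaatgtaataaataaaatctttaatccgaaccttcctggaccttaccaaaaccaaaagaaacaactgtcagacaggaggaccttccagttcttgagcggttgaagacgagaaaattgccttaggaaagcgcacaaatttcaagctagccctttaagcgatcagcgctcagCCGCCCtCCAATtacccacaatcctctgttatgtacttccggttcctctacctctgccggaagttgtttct
Pla2g4e and Gatm were higher in the syn line. Both lie on the minus strand, with windows at chr2:120245336-120245585 and chr2:122611278-122611527.
Pla2g4e: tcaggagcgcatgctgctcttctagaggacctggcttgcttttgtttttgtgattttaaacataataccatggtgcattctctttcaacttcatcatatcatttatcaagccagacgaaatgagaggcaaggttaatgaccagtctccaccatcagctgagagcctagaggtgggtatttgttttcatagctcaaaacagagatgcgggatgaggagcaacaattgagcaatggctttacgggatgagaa
Gatm: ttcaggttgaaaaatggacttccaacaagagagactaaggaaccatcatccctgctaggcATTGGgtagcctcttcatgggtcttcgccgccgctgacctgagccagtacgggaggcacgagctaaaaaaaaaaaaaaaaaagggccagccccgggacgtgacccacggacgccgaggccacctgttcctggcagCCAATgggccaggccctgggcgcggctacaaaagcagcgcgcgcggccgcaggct
The windows differ in kind. Ivd holds 4 CCAAT boxes, all on the opposite strand, and no GC box, whereas Eif3j1 holds 5 GC boxes and no CCAAT box. Pla2g4e has neither, 4 CpG dinucleotides and 43.2% G and C, against 26 CpG dinucleotides and 73.6% in Eif3j1. A RefSeq window was matched for 138 of the 158 tested members. A GC box stood in 57.2% of those windows and a CCAAT box in 34.8%, against 32.7% and 33.8% of the 32851 windows in the RefSeq table. The TATA motif, searched as TATAAA on both strands, stood in 5.07% of the members' windows and in 12.4% of all windows. These sets are unlike, since the members are protein-coding genes abundant enough to be tested. The RefSeq windows were not limited to such genes, and some genes have several. The median number of CpG dinucleotides was 15 in the members' windows and 6 in all windows. The gaps in motif shares therefore cannot be read as a trait of this stretch of chromosome 2. Among the 51 members with a window that were called in both line comparisons, 58.8% held a GC box and 31.4% a CCAAT box.

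The libraries held 41596313 to 69652824 counts assigned to genes. Reads that fell on no counted feature took 7.52 to 11.1% in syn libraries and 4.47 to 6.37% in gfap libraries. This measure thus separated the lines, and its part in the differences between them was not tested. The feature type counted is not stated, so such reads may still lie within genes. Syn Cre-negative library 5 stood apart, with 11.1% on no counted feature and 7.46% ambiguous reads. The counts of called members are given without this library below. Slc1a2 itself averaged 3012 ± 213 CPM (counts scaled to the library's total) in syn Cre-positive brains and 3322 ± 98.7 CPM in syn Cre-negative brains (SD, n = 6 each), a log2 fold change of -0.14. It averaged 3480 ± 290 CPM in gfap Cre-positive brains and 3518 ± 542 CPM in gfap Cre-negative brains (SD, n = 6 each), a log2 fold change of -0.02. In that group, gfap Cre-negative library 4 stood at 2493.9 CPM, and without it the log2 fold change was -0.10. Neither genotype difference in Slc1a2 passed edgeR's quasi-likelihood test (adjusted p of 1.00 in each line). Between lines, Slc1a2 fell by 0.21 in Cre-positive mice on the log2 scale (adjusted p = 0.044) and differed by -0.08 in Cre-negative mice (adjusted p = 0.437). The Cre-positive call was lost with RLE or upper-quartile factors, the filter at 1 CPM, DESeq2, limma-voom with a random block or the choroid plexus covariate (adjusted p of 0.0637 to 0.139). It was also lost without any one of syn Cre-positive libraries 1, 2, 4 and 6, gfap Cre-positive libraries 1, 2, 5 and 6 and gfap Cre-negative libraries 3 and 5 (adjusted p of 0.062 to 0.168). Without gfap Cre-negative library 4, the Cre-negative difference was -0.15 and passed (adjusted p = 0.0468).

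Markers of some cell types moved with the line, while other lists moved less or in mixed directions. Of 8 choroid plexus markers, 6 were higher in the syn line in Cre-positive mice and 8 in Cre-negative mice. Their summed level ranged from 71.4 to 5094 CPM in syn Cre-positive brains and from 103 to 5359 CPM in syn Cre-negative brains, against 53.5 to 274 CPM in gfap Cre-positive brains and 53.4 to 206 CPM in gfap Cre-negative brains. All 8 oligodendrocyte markers were higher in the syn line in Cre-positive mice and 6 in Cre-negative mice, with sums of 5783 to 7733 and 5382 to 8245 CPM in the syn groups against 3669 to 5386 and 4142 to 5289 CPM in the gfap groups. Of 8 neuronal markers, 5 were lower in the syn line in Cre-positive mice and 7 in Cre-negative mice, with sums of 5991 to 6550 and 5982 to 6959 CPM against 7106 to 8416 and 7215 to 8222 CPM. Endothelial markers were lower for 6 of 8 in Cre-positive mice and 4 of 8 in Cre-negative mice, with sums of 167 to 197 and 170 to 200 CPM against 205 to 254 and 195 to 255 CPM. Of 8 astrocyte markers, 2 were higher and 2 lower in the syn line in Cre-positive mice, and 1 higher and 2 lower in Cre-negative mice. Microglial markers were lower for 2 of 8 in each genotype, hippocampal markers higher for 1 and lower for 3 of 8 in each, and no striatal marker was called. Of 7 cerebellar markers tested, 3 were higher and 1 lower in the syn line in Cre-positive mice, and 1 lower in Cre-negative mice. Their median log2 fold changes were 0.57 and 0.33. Of 4 hypothalamic and thalamic markers tested, 1 was higher and 1 lower in Cre-positive mice, and 1 lower in Cre-negative mice. Their medians were 0.77 and 0.30. Of 8 meningeal fibroblast markers, 1 was higher in Cre-negative mice and no other was called. The lowest choroid plexus sums of the syn groups lay within the gfap ranges. None of these markers was at 0 in all libraries. In bulk tissue, fewer cells of a type and less RNA per cell cannot be told apart. The part of these markers in the differences below was not tested, except that the choroid plexus level was entered as a covariate.

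Between the lines, members differed in both directions and in the same direction in both genotypes. In Cre-positive mice, 63 of the 158 tested members (39.9%) were called at an adjusted p under 0.05 (edgeR's quasi-likelihood test, adjusted over all genes), of which 25 were higher and 38 lower in syn brains. The background was 27.5% of all genes tested (12.8% higher and 14.7% lower) and 29.7% of protein-coding genes outside the window. In Cre-negative mice, 69 members (43.7%) were called, 28 higher and 41 lower, against a background of 31.2% of all genes (14.6% higher and 16.6% lower) and 33.1% of protein-coding genes outside the window. A total of 53 members (33.5%) were called in both comparisons in the same direction, 23 higher and 30 lower, against 19.9% of all genes (9.29% higher and 10.6% lower), 21.9% of protein-coding genes outside the window and 23% of protein-coding genes elsewhere on chromosome 2. No member was called in opposite directions, against 0.0101% of all genes. The 53 made up 84.1% of the members called in Cre-positive mice and 76.8% of those called in Cre-negative mice, whereas over all genes the shares were 72.6% and 63.8%. With syn Cre-negative library 5 left out, 62 members were called in Cre-positive mice, 67 in Cre-negative mice and 50 in both. With the choroid plexus level as a covariate, the counts were 55, 61 and 45.

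Most of these differences were small. The median size of the log2 fold change over all tested members was 0.17 in Cre-positive mice and 0.20 in Cre-negative mice. Over all genes it was 0.18 and 0.19, and over protein-coding genes outside the window it was lower, at 0.15 and 0.16. A total of 8 members (5.06%) were called and changed at least 1.5-fold in both comparisons, against 4.79% of all genes and 3.35% of protein-coding genes outside the window, so by this stricter rule the members lay close to the background. Libraries of the lines did not overlap for 33 members (20.9%) in Cre-positive mice, against 13.3% of all genes, and for 33 (20.9%) in Cre-negative mice, against 11% of all genes. They overlapped in neither genotype for 18 members (11.4%), against 5.92% of all genes and 6.72% of protein-coding genes outside the window. Among genes with a mean of at least 10 CPM, 38.5% of 104 members were called in both comparisons, against 27.9% of protein-coding genes outside the window. The balance of directions depended on scaling. With upper-quartile factors in place of TMM, the Cre-positive calls were 28 higher and 26 lower and the Cre-negative calls 30 higher and 34 lower.

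**Figure D1:**
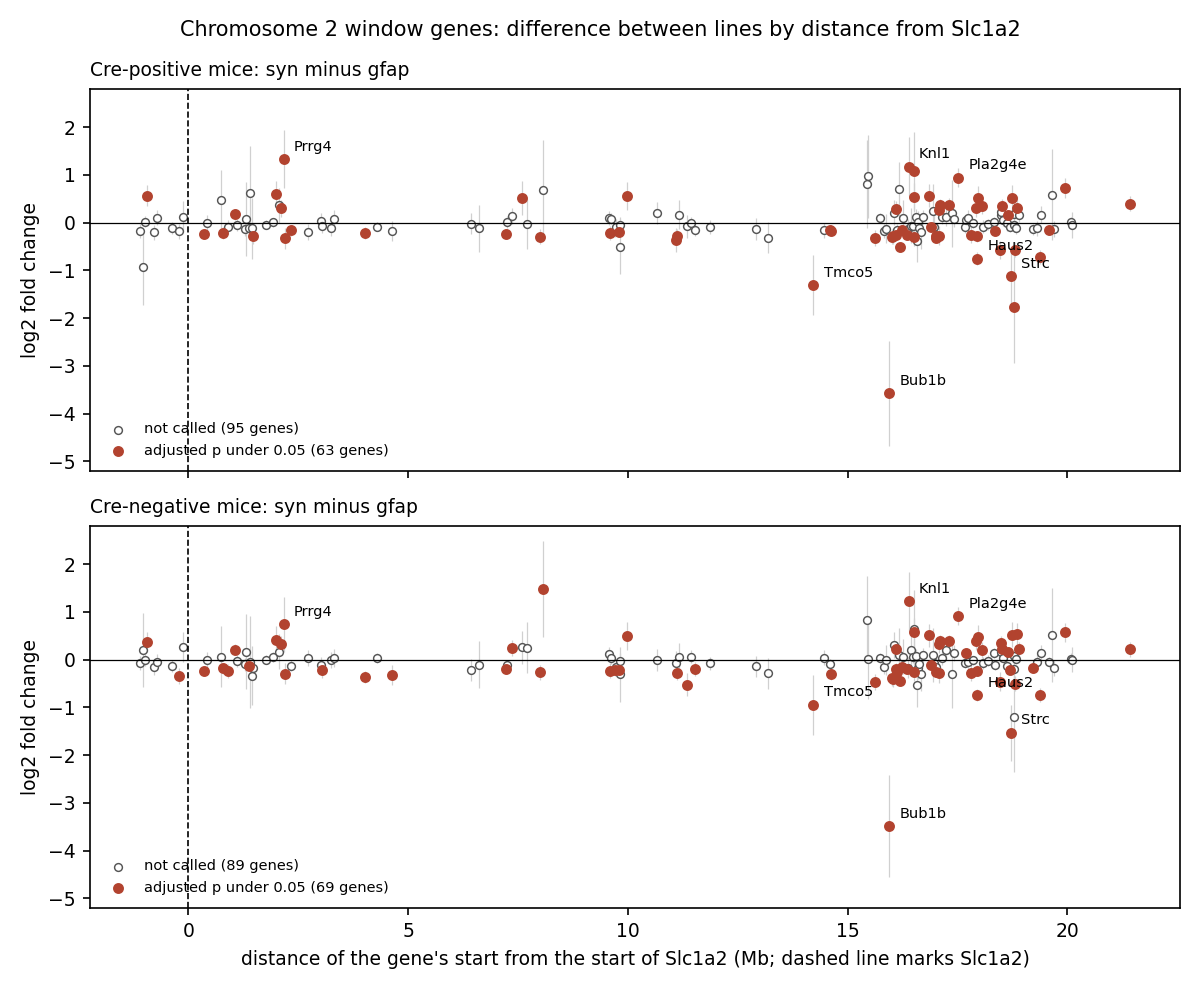
Log2 fold change of the 158 tested members, syn minus gfap, in Cre-positive mice (top) and Cre-negative mice (bottom), plotted against the distance of each gene's start from the start of Slc1a2 in Mb. Bars are 95% intervals, filled points passed an adjusted p of 0.05 (63 and 69 genes), and most filled points lie between 15 and 20 Mb from Slc1a2, on both sides of the zero line.

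Haus2 (ENSMUSG00000027285) had the smallest p of all members in Cre-negative mice. It encodes a subunit of the augmin complex, which seeds new microtubules within the mitotic spindle, and lies at 120609383 to 120621560 on the plus strand, 17.95 Mb from Slc1a2. In Cre-positive mice it had a lowest, median and highest value of 12.7, 13.9 and 15.1 CPM in syn brains, against 20.1, 23.0 and 26.4 CPM in gfap brains. In Cre-negative mice it had 12.2, 13.4 and 14.3 CPM in syn brains, against 20.9, 22.5 and 24.4 CPM in gfap brains. Every syn library thus lay below every gfap library. The gene was 1.68-fold lower in the syn line in both genotypes, with log2 fold changes of -0.75 ± 0.06 (SE, adjusted p = 4.98e-09) in Cre-positive mice and -0.75 ± 0.06 (SE, adjusted p = 1.28e-08) in Cre-negative mice.

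Ivd (ENSMUSG00000027332), isovaleryl-CoA dehydrogenase of leucine breakdown in mitochondria, lies at 118861954 to 118882909 on the plus strand, 16.20 Mb from Slc1a2. It had 60.3, 62.8 and 65.9 CPM in syn Cre-positive brains, against 85.5, 88.7 and 94.9 CPM in gfap Cre-positive brains. Syn Cre-negative brains had 59.8, 63.4 and 66.9 CPM, against 84.3, 85.6 and 89.3 CPM in gfap Cre-negative brains. The lines were separated by a gap wider than the spread within any group. Log2 fold changes were -0.51 ± 0.04 (SE, adjusted p = 4.31e-09) in Cre-positive mice and -0.44 ± 0.04 (SE, adjusted p = 4.66e-08) in Cre-negative mice.

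Rtf1 (ENSMUSG00000027304), a subunit of the PAF1 complex that travels with RNA polymerase II, lies at 119675068 to 119735407, 17.02 Mb from Slc1a2. It had 81.1, 83.4 and 86.8 CPM in syn Cre-positive brains, against 101, 102 and 114 CPM in gfap Cre-positive brains. Syn Cre-negative brains had 81.2, 87.3 and 89.5 CPM, against 98.9, 104 and 111 CPM in gfap Cre-negative brains. The difference was small but the lines did not overlap, with log2 fold changes of -0.32 ± 0.04 (SE, adjusted p = 5.48e-06) and -0.26 ± 0.04 (SE, adjusted p = 4.91e-05). Pdhx, an anchoring subunit of the pyruvate dehydrogenase complex and the tested member nearest to Slc1a2 on the distal side at 0.36 Mb, showed the same kind of small separation. It had 42.3, 43.6 and 47.8 CPM in syn Cre-positive brains against 48.1, 51.8 and 57.0 CPM in gfap Cre-positive brains, and fell by 0.24 on the log2 scale in each genotype (adjusted p = 0.00151 and 0.00142).

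Among the members that were higher in the syn line, Pla2g4e (ENSMUSG00000050211) had the smallest p in both genotypes. It encodes a cytosolic phospholipase that, as an acyltransferase, makes precursors of endocannabinoid-like lipids, and lies at 120166412 to 120245335 on the minus strand, 17.51 Mb from Slc1a2. It had 28.4, 34.4 and 41.3 CPM in syn Cre-positive brains, against 16.2, 17.7 and 19.9 CPM in gfap Cre-positive brains. Syn Cre-negative brains had 30.7, 37.9 and 43.1 CPM, against 15.8, 20.2 and 22.5 CPM in gfap Cre-negative brains. No syn library reached down to any gfap library. Pla2g4e was 1.93-fold higher in Cre-positive mice (log2 fold change 0.95 ± 0.09, SE, adjusted p = 1.38e-07) and 1.87-fold higher in Cre-negative mice (0.91 ± 0.09, SE, adjusted p = 2.51e-07).

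Gatm (ENSMUSG00000027199), the enzyme of the first step of creatine synthesis, lies at 122594467 to 122611303 on the minus strand, 19.94 Mb from Slc1a2. It had 18.1, 18.7 and 22.6 CPM in syn Cre-positive brains, against 8.82, 11.8 and 15.0 CPM in gfap Cre-positive brains. Syn Cre-negative brains had 15.9, 16.9 and 20.6 CPM, against 9.89, 11.9 and 13.3 CPM in gfap Cre-negative brains. Again the lines did not overlap, and the log2 fold changes were 0.73 ± 0.10 (SE, adjusted p = 1.14e-05) and 0.57 ± 0.10 (SE, adjusted p = 0.000138). Rpap1, which binds RNA polymerase II, and Mapkbp1, a scaffold of JNK signalling, lie 17.10 and 17.31 Mb from Slc1a2. Rpap1 had 26.2, 30.2 and 32.1 CPM in syn Cre-positive brains against 20.8, 22.5 and 24.9 CPM in gfap Cre-positive brains, and rose by 0.38 ± 0.06 in Cre-positive mice and 0.40 ± 0.06 in Cre-negative mice on the log2 scale (SE, adjusted p = 6.24e-05 and 3.29e-05). Mapkbp1 had 65.2, 71.2 and 79.3 CPM in syn Cre-positive brains against 50.0, 56.4 and 58.7 CPM in gfap Cre-positive brains, and rose by 0.37 ± 0.07 and 0.39 ± 0.07 (SE, adjusted p = 0.000216 and 0.000125). Neither gene overlapped between lines in either genotype. Sema6d, an axon guidance semaphorin and the most distant of the 53 at 21.43 Mb, rose by 0.40 ± 0.07 (SE, adjusted p = 0.000374) in Cre-positive mice, where the lines did not overlap, and by 0.22 ± 0.07 (SE, adjusted p = 0.0279) in Cre-negative mice, where they did.

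**Figure D2:**
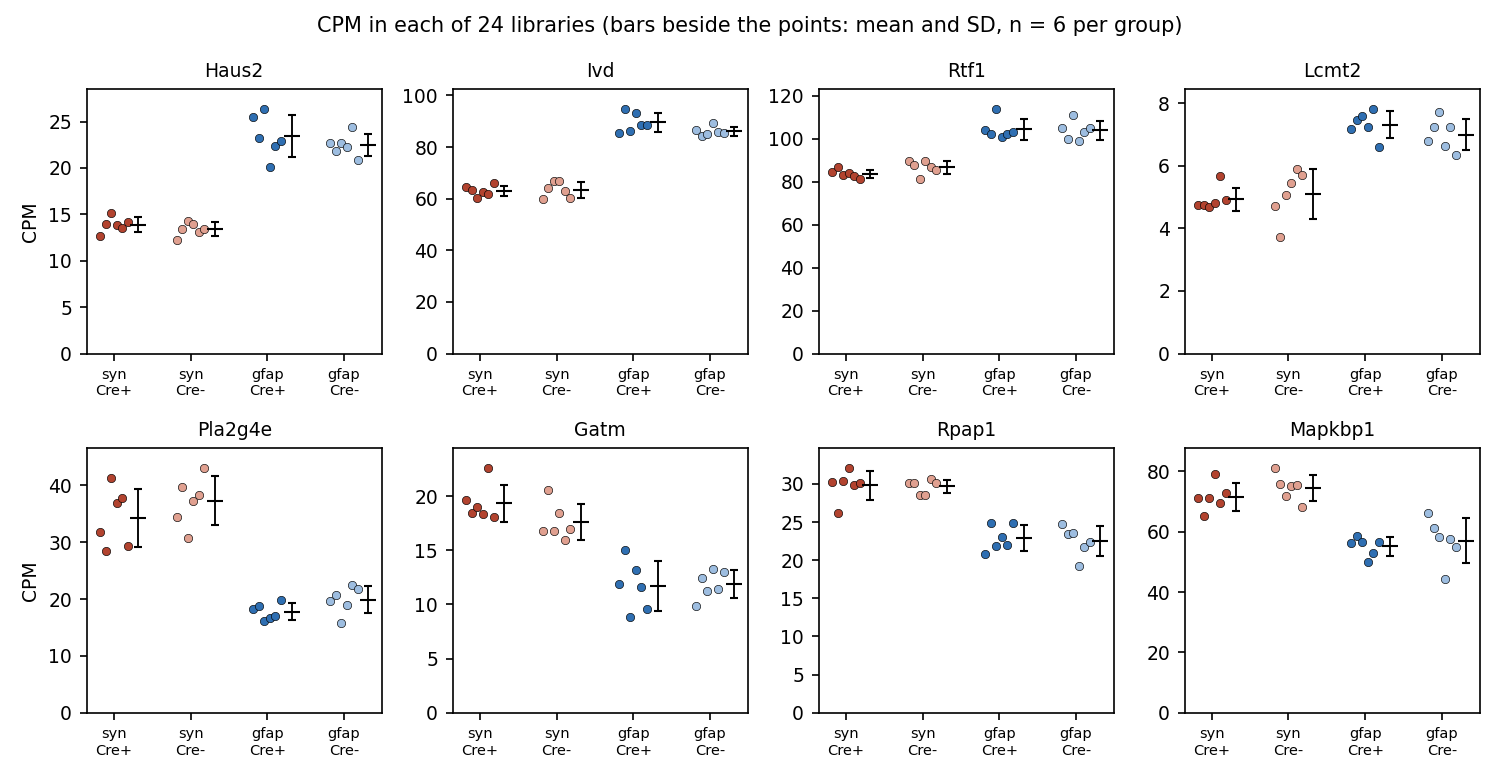
CPM of 8 members in each of the 24 libraries, by line and genotype, with the mean and SD of 6 libraries beside the points. In all 8 genes the syn libraries lie wholly below (Haus2, Ivd, Rtf1, Lcmt2) or wholly above (Pla2g4e, Gatm, Rpap1, Mapkbp1) the gfap libraries of the same genotype, while the Cre-positive and Cre-negative libraries of a line lie together.

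Some of the largest folds came from genes with few reads. Bub1b, a kinase-like protein of the spindle checkpoint 15.94 Mb from Slc1a2, had between 3 and 9 counts per library in syn Cre-positive brains and 2 to 8 in syn Cre-negative brains, against 25 to 79 in gfap Cre-positive brains and 8 to 103 in gfap Cre-negative brains. Its level was 0.0541, 0.067 and 0.187 CPM in syn Cre-positive brains, against 0.468, 0.972 and 1.52 CPM in gfap Cre-positive brains. Syn Cre-negative brains had 0.0367, 0.107 and 0.153 CPM, against 0.158, 1.36 and 1.93 CPM in gfap Cre-negative brains. Although the gene was near its detection limit in the syn line, the lines did not overlap, and the fitted log2 fold changes were -3.57 ± 0.54 (SE, adjusted p = 4.61e-05) and -3.49 ± 0.52 (SE, adjusted p = 3.95e-05). Knl1, a scaffold of the outer kinetochore 16.39 Mb from Slc1a2, moved the other way. It had 0.271, 0.721 and 0.945 CPM in syn Cre-positive brains against 0.132, 0.258 and 0.449 CPM in gfap Cre-positive brains, and rose by 1.17 ± 0.30 and 1.22 ± 0.30 on the log2 scale (SE, adjusted p = 0.00548 and 0.00311). Its lines overlapped in Cre-positive mice and not in Cre-negative mice.

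Strc, which encodes stereocilin of inner ear hair bundles, had 0.188, 0.572 and 0.903 CPM in syn Cre-positive brains against 0.973, 1.22 and 1.47 CPM in gfap Cre-positive brains. It fell by 1.12 ± 0.28 in Cre-positive mice and by 1.53 ± 0.29 in Cre-negative mice on the log2 scale (SE, adjusted p = 0.00416 and 0.000273). Tmco5, a coiled-coil membrane protein gene 14.22 Mb from Slc1a2, fell by 1.30 ± 0.31 and 0.95 ± 0.31 (SE, adjusted p = 0.00296 and 0.0208), with at most 0.931 CPM in any Cre-positive library. Its Cre-negative call was lost with the choroid plexus covariate or the compared groups fitted alone (adjusted p = 0.0955 and 0.0566). It was also lost without syn Cre-negative library 2 or 3 (adjusted p = 0.0555 and 0.051). Prrg4, a membrane protein with a Gla domain 2.17 Mb from Slc1a2, was the only one of these 8 larger differences within 10 Mb of it. It had 0.444, 0.875 and 1.48 CPM in syn Cre-positive brains against 0.198, 0.312 and 0.550 CPM in gfap Cre-positive brains, and rose by 1.33 ± 0.30 and 0.74 ± 0.28 (SE, adjusted p = 0.00163 and 0.045). The Cre-negative difference of Prrg4 was 0.28 with the choroid plexus covariate (adjusted p = 0.464). That call was also lost with no filter or with limma-voom quality weights (adjusted p = 0.0612 and 0.0544). The difference missed the threshold without any one of syn Cre-positive libraries 1 and 2, syn Cre-negative libraries 2, 3, 4 and 6 and gfap Cre-negative libraries 2, 4, 5 and 6 (adjusted p of 0.0501 to 0.132).

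Eif3j1 and Mfap1b have copies whose sequence bears on their counts. Eif3j1 (ENSMUSG00000027236), a subunit of translation initiation factor 3 at 122028546 to 122056598, 19.37 Mb from Slc1a2, shares 36.6% of the 50-base words of its transcripts with Eif3j2 and 50.9% with transcripts of any other gene. It had 10.7, 12.1 and 15.1 CPM in syn Cre-positive brains against 19.0, 19.9 and 23.6 CPM in gfap Cre-positive brains. Syn Cre-negative brains had 11.0, 12.1 and 13.4 CPM against 18.1, 20.5 and 21.2 CPM in gfap Cre-negative brains. The lines did not overlap, and log2 fold changes were -0.72 ± 0.07 (SE, adjusted p = 2.17e-07) and -0.75 ± 0.07 (SE, adjusted p = 1.52e-07). Eif3j2, which is no member, went the opposite way, with 0.58 ± 0.08 (SE, adjusted p = 1.91e-05) in Cre-positive mice and 0.64 ± 0.08 (SE, adjusted p = 4.15e-06) in Cre-negative mice. The sum of both copies was 27.6 ± 2.62 CPM in syn Cre-positive brains and 30.6 ± 1.79 CPM in gfap Cre-positive brains, and 28.6 ± 2.67 CPM in syn Cre-negative brains and 30.8 ± 2.08 CPM in gfap Cre-negative brains (SD, n = 6 each). On the log2 scale the sums thus differed by -0.15 and -0.11, far less than either copy alone.

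Mfap1b (ENSMUSG00000048222), a spliceosome component at 121460235 to 121474067, shares 62.5% of its 50-base words with Mfap1a, its neighbour in the window. Mfap1b had 11.7, 13.1 and 14.3 CPM in syn Cre-positive brains against 16.9, 18.8 and 22.3 CPM in gfap Cre-positive brains, and fell by 0.57 ± 0.08 and 0.51 ± 0.08 on the log2 scale (SE, adjusted p = 9.93e-06 and 3.06e-05). Mfap1a had 21.1, 23.3 and 24.2 CPM in syn Cre-positive brains against 23.1, 24.8 and 27.4 CPM in gfap Cre-positive brains, with log2 fold changes of -0.11 ± 0.06 and 0.02 ± 0.06 (SE, adjusted p = 0.165 and 0.81). The sum of the pair differed by -0.29 and -0.20. How reads were divided between copies was not tested, so the change of any copy on its own is uncertain.

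**Figure D3:**
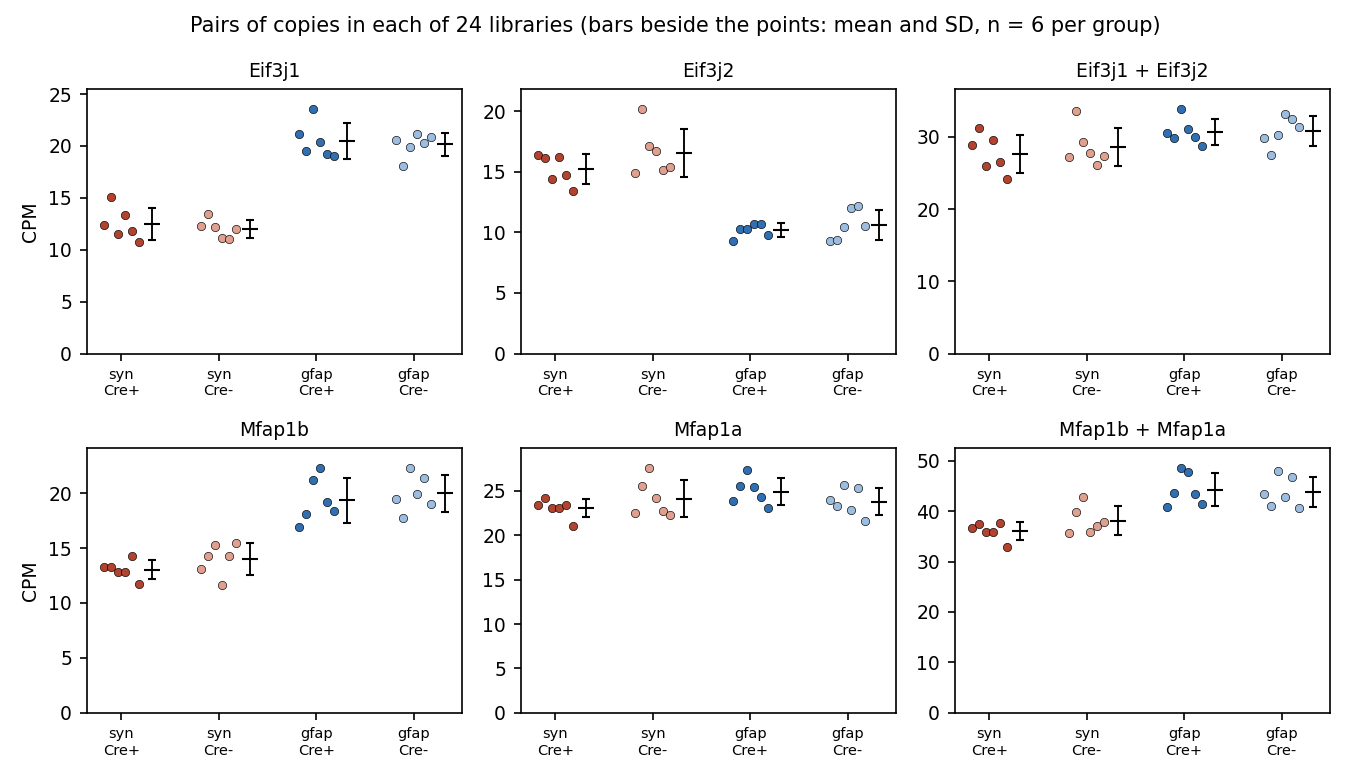
CPM of Eif3j1 and Mfap1b (left), of their copies Eif3j2 and Mfap1a (middle) and of the sum of each pair (right) in each of the 24 libraries, with the mean and SD of 6 libraries beside the points. Eif3j1 is lower and Eif3j2 higher in the syn line, and their sums lie at 24.1 to 33.6 CPM in syn brains and 27.5 to 33.9 CPM in gfap brains.

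Overlapping neighbours limit several other values. No source used here gives the strand setting of the counting, and 50 tested members overlap another protein-coding gene, among them 17 of the 53 called in both comparisons. Haus2 and Lrrc57, a leucine-rich repeat gene, start head to head and overlap at their starts. Lrrc57 had 22.1, 23.8 and 27.6 CPM in syn Cre-positive brains against 25.9, 29.4 and 31.6 CPM in gfap Cre-positive brains, and fell by 0.29 ± 0.06 and 0.23 ± 0.06 on the log2 scale (SE, adjusted p = 0.000616 and 0.00288), less than Haus2. Lcmt2, a tRNA-modifying methyltransferase gene singled out after its values were seen, overlaps Adal, an adenosine deaminase-like gene, on the opposite strand. Lcmt2 fell by 0.57 ± 0.10 and 0.46 ± 0.09 (SE, adjusted p = 0.000105 and 0.000665). Adal had log2 fold changes of 0.15 ± 0.07 in Cre-positive mice (SE, adjusted p = 0.0848) and 0.35 ± 0.07 in Cre-negative mice (SE, adjusted p = 0.000296). Strc overlaps the end of Ckmt1, the mitochondrial creatine kinase, whose level of 204, 222 and 230 CPM in syn Cre-positive brains against 210, 235 and 246 CPM in gfap Cre-positive brains differed by -0.09 ± 0.05 (SE, adjusted p = 0.234). In Cre-negative mice Ckmt1 fell by 0.21 ± 0.05 (SE, adjusted p = 0.00333). Cdan1, a gene of nuclear assembly in red cell precursors, shares 43.9% of its 50-base words with other genes and rose by 0.34 ± 0.08 and 0.20 ± 0.08 (SE, adjusted p = 0.00206 and 0.0484). Its Cre-negative call was lost without any one of 13 libraries (adjusted p of 0.0504 to 0.106), namely syn Cre-positive 1 to 5, syn Cre-negative 1, 2, 4 and 5, gfap Cre-positive 4 and gfap Cre-negative 2, 3 and 5. That call was also lost with no filter or with limma-voom with a random block (adjusted p = 0.095 and 0.0547).

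By distance, the share of members called did not peak at Slc1a2. Among the 56 tested members within 10 Mb, 17 (30.4%) were called in Cre-positive mice and 22 (39.3%) in Cre-negative mice, and 14 (25%) in both. Among the 102 beyond 10 Mb, 46 (45.1%) and 47 (46.1%) were called, and 39 (38.2%) in both. Over all genes tested the shares were 27.5%, 31.2% and 19.9%. Of protein-coding genes elsewhere on chromosome 2, 23% were called in both. The shares within 10 Mb thus lay closer to the background than those beyond it. The 5 Mb steps showed where they lay. Of 9 tested proximal members, 1 was called in both comparisons. From 0 to 5 Mb it was 8 of 29 (27.6%), from 5 to 10 Mb 5 of 18 (27.8%), and from 10 to 15 Mb 3 of 14 (21.4%). The stretch from 15 to 20 Mb, which holds 85 of the tested members, had 35 (41.2%), 16 of them higher and 19 lower, and 6 of the 8 larger differences. Of 3 tested members beyond 20 Mb, 1 was called in both. These shares are a description, and no test of distance was made. Without syn Cre-negative library 5, the Cre-negative counts were 20 within 10 Mb and 47 beyond it. With the choroid plexus covariate, 15 and 16 members within 10 Mb and 40 and 45 beyond it were called in Cre-positive and Cre-negative mice.

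**Figure D4:**
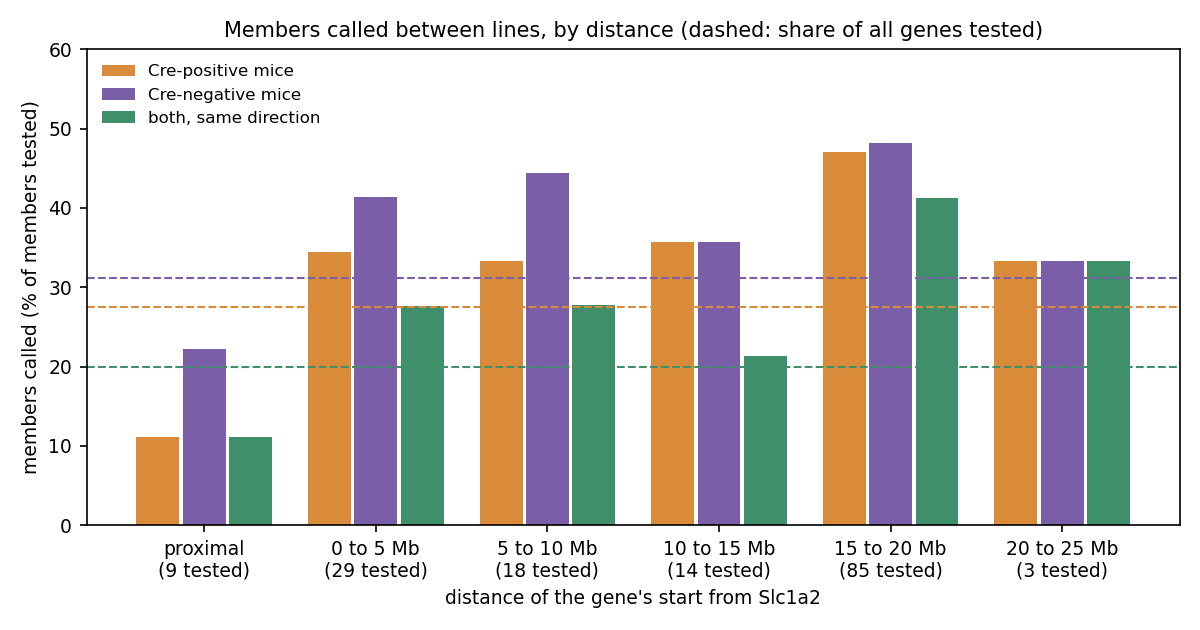
Share of tested members called between lines (percent, y axis) by distance from Slc1a2 (x axis, with the number tested), in Cre-positive mice, in Cre-negative mice and in both in the same direction. Dashed lines give the share over all genes tested (27.5%, 31.2% and 19.9%), and the bars are highest for the 85 members 15 to 20 Mb from Slc1a2.

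The genes closest to Slc1a2 showed small differences or none that passed. On the proximal side, Pamr1, a secreted peptidase-like gene that starts 0.11 Mb before Slc1a2, had 10, 12.6 and 16.2 CPM in syn Cre-positive brains against 9.9, 12 and 13.6 CPM in gfap Cre-positive brains. Its groups overlapped, and log2 fold changes were 0.13 ± 0.15 and 0.27 ± 0.15 (SE, adjusted p = 0.574 and 0.183). Fjx1, a secreted regulator of dendrite growth, had 35.4, 40.1 and 46.9 CPM in syn Cre-negative brains against 48.0, 49.1 and 59.8 CPM in gfap Cre-negative brains and fell by 0.34 ± 0.08 there (SE, adjusted p = 0.002). In Cre-positive mice Fjx1 differed by -0.18 ± 0.08 (SE, adjusted p = 0.0881), and passed without syn Cre-positive library 6 or gfap Cre-positive library 1 (adjusted p = 0.0263 and 0.0456). Trim44, a deubiquitinase-like gene, Ldlrad3, an LDL receptor family gene, and Commd9, a subunit of the Commander complex of endosomal sorting, passed in neither comparison, with log2 fold changes between -0.20 and 0.11. Trim44 passed in Cre-negative mice without gfap Cre-negative library 4 (adjusted p = 0.00317). Commd9 passed in Cre-positive mice without syn Cre-positive library 5, gfap Cre-positive library 1 or gfap Cre-negative library 4 (adjusted p = 0.0277, 0.0176 and 0.049). On the distal side, Apip of methionine salvage stood at -0.01 ± 0.08 in both comparisons (SE, adjusted p = 0.967 and 0.934). Elf5, an epithelial transcription factor gene with at most 0.649 CPM in any library, did not pass, with 0.47 ± 0.31 and 0.06 ± 0.31. Cat, the peroxisomal enzyme catalase, had 37.1, 41.6 and 43.0 CPM in syn Cre-positive brains against 44.3, 47.1 and 53.0 CPM in gfap Cre-positive brains. It fell by 0.22 ± 0.06 and 0.19 ± 0.06 (SE, adjusted p = 0.00696 and 0.0195). The Cre-negative call was lost without syn Cre-negative library 1 or gfap Cre-negative library 3 (adjusted p = 0.0509 and 0.0886). That call was also lost with upper-quartile factors, the filter at 1 CPM or the compared groups fitted alone (adjusted p of 0.0568 to 0.0897). Abtb2, an ankyrin repeat and BTB domain gene, differed by -0.09 ± 0.07 in Cre-positive mice (SE, adjusted p = 0.197) and fell by 0.24 ± 0.07 in Cre-negative mice (SE, adjusted p = 0.011).

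Grouped by what they do, 115 of the 158 tested members fall into 8 lists, and the members called in both comparisons are named here after their values were seen. Over all genes tested, 9.29% were called higher and 10.6% lower in both comparisons, and each list's shares are set against these. Among protein-coding genes outside the window the shares were 8.65% and 13.2%. Among those with a mean of at least 10 CPM they were 7.48% and 20.4%, so part of a larger lower share goes with such genes in general. Of all 158 tested members, 23 were higher and 30 lower in both. Of 15 transcription and chromatin regulators, 4 were higher in the syn line in both genotypes (26.7%: Nat10, Tcp11l1, Qser1 and Wdr76) and 0 lower, and the median log2 fold change was 0.12 in Cre-positive mice and 0.06 in Cre-negative mice, beside -0.02 and -0.02 over all genes. Nat10 is known as an RNA acetyltransferase rather than a transcription factor. Hipk3, a nuclear kinase, and Mga, a partner of Max, passed in neither comparison. Of 27 neuronal, synaptic, secretory and cytoskeletal genes, 3 were higher in both (11.1%, near the background: Snap23, Tubgcp4 and Sema6d) and 8 lower (29.6%: Mpped2, Lin7c, Scg5, Rasgrp1, Pak6, Chp1, Itpka and Strc), with medians of -0.10 and -0.07. Rasgrp1, a Ras activator of neurons and lymphocytes, had 628, 697 and 718 CPM in syn Cre-positive brains against 675, 760 and 874 CPM in gfap Cre-positive brains. It fell by 0.17 ± 0.05 and 0.31 ± 0.05 (SE, adjusted p = 0.02 and 0.000103), and the Cre-positive call was lost without syn Cre-positive library 5 or 6 or gfap Cre-positive library 1, 2 or 3 (adjusted p of 0.0546 to 0.0692). That call was also lost with RLE or upper-quartile factors, the filter at 1 CPM, the compared groups fitted alone or the choroid plexus covariate (adjusted p of 0.0555 to 0.0896). Itpka, the inositol trisphosphate kinase of dendritic spines, fell by 0.27 ± 0.09 and 0.29 ± 0.09 (SE, adjusted p = 0.0322 and 0.0209). Its Cre-positive call was lost with RLE or upper-quartile factors, no filter or the filter at 1 CPM (adjusted p of 0.0559 to 0.0783). It was also lost without any one of syn Cre-positive libraries 2, 3 and 5, gfap Cre-positive libraries 2, 4, 5 and 6 and gfap Cre-negative library 5 (adjusted p of 0.05 to 0.0888). Its Cre-negative call was lost with limma-voom quality weights (adjusted p = 0.0732) and without syn Cre-negative library 3 or gfap Cre-negative library 3, 4 or 5 (adjusted p of 0.0509 to 0.0824). Map1a, the abundant dendritic microtubule protein, passed in neither comparison, with a log2 fold change of -0.12 ± 0.08 in Cre-negative mice (SE, adjusted p = 0.268). Without gfap Cre-negative library 4, that difference passed (adjusted p = 0.00951). The direction of this list is that of the neuronal markers, whose part in it was not tested.

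Of 17 mitochondrial and metabolic genes, 2 were higher in both comparisons (11.8%, near the background: Pla2g4e and Gatm) and 4 lower (23.5%: Pdhx, Cat, Ivd and Nop10, of which Nop10 belongs to the RNA-guided pseudouridylation complex). Of 15 genes of translation and RNA handling, Rpap1 was higher in both (6.67%, near the background) and Eif3j1, Mfap1b, Dnajc17 and Tmco5 lower (26.7%), with medians of -0.13 and -0.15. Tmco5 is not known for a role in translation. Caprin1, an RNA granule protein, and Aqr, a spliceosome helicase, passed in neither comparison. Of 11 genes of DNA replication, repair and mitosis, Knl1 and Cdan1 were higher (18.2%) and Haus2 and Bub1b lower in both (18.2%), while Dnajc24 and Nusap1, a spindle protein, passed in neither. Of 8 channels and transporters, Ryr3, the ryanodine receptor calcium channel of internal stores, was higher in both (12.5%) and Ano3, an anoctamin, lower in both (12.5%), shares near the background. Ryr3 had 94.1, 111 and 130 CPM in syn Cre-positive brains against 54.0, 79.1 and 93.8 CPM in gfap Cre-positive brains, and rose by 0.56 ± 0.15 and 0.50 ± 0.15 (SE, adjusted p = 0.00727 and 0.013). Ano3 had 123, 143 and 158 CPM in syn Cre-positive brains against 149, 183 and 187 CPM in gfap Cre-positive brains, and fell by 0.29 ± 0.07 and 0.27 ± 0.07 (SE, adjusted p = 0.00492 and 0.00781). Of 17 signalling genes, Prr5l and Ltk were higher in both (11.8%, near the background) and 0 lower, and Spred1, Trp53bp1, Lgr4 and Traf6 passed in neither. Of 5 immune genes tested, Capn3, better known as a muscle calpain, was lower in both, by 0.26 ± 0.08 and 0.27 ± 0.08 (SE, adjusted p = 0.0182 and 0.0125). Its Cre-positive call was lost without gfap Cre-positive library 2 or 6 (adjusted p = 0.0734 and 0.052), and both calls with the choroid plexus covariate (adjusted p = 0.0534 and 0.0614). The Cre-positive call was also lost with upper-quartile factors or the filter at 1 CPM (adjusted p = 0.0556 and 0.0523). The Cre-negative call was also lost with the compared groups fitted alone (adjusted p = 0.0544). The complement regulators Cd59a and Cd59b and the recombinase gene Rag1 passed in neither. With the choroid plexus covariate, however, Cd59a fell by 0.74 in Cre-positive mice and by 1.10 in Cre-negative mice on the log2 scale (adjusted p = 0.0112 and 0.00073).

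Cre genotype made no detectable difference to any member. Within the syn line, 0 of 158 members were called between Cre-positive and Cre-negative mice by edgeR's quasi-likelihood test, against a background of 0.00507% of all genes, and the smallest adjusted p was 0.749. Within the gfap line, 0 members were called, against 0.0101% of all genes. The line by genotype interaction, which tests the difference between lines in the genotype effect, also called 0 members, against 0.0101% of all genes. At an unadjusted p under 0.05 there were 9 members (5.7%) in the syn line, 5 (3.16%) in the gfap line and 3 in the interaction, against 4.67%, 2.99% and 3.5% of all genes. DESeq2 and limma-voom called 0 members as well. The median size of the log2 fold change was 0.06 in each line. The median 95% interval, which is not adjusted for the number of genes, reached 0.16 on either side. A call after adjustment over all genes asks for more, so changes larger than this could also be missed with these libraries.

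The members with the smallest genotype p values did not line up between the lines. In the syn line Mpped2, a brain metallophosphodiesterase gene 4.03 Mb from Slc1a2, had 28.6, 29.3 and 29.8 CPM in Cre-positive brains against 22.4, 26.2 and 27.3 CPM in Cre-negative brains. It was the only member there whose genotypes did not overlap (0.633% of members, against 0.203% of all genes), with a log2 fold change of 0.18 ± 0.06 (SE, adjusted p = 0.749). In the gfap line Mpped2 differed by 0.04 ± 0.06 (SE, adjusted p = 1.00). Between lines it fell by 0.22 ± 0.06 in Cre-positive mice and by 0.36 ± 0.06 in Cre-negative mice (SE, adjusted p = 0.0079 and 8.86e-05). Pax6, a neural patterning factor, had 8.10, 9.09 and 9.66 CPM in syn Cre-positive brains against 6.75, 7.72 and 8.20 CPM in syn Cre-negative brains, a log2 fold change of 0.25 ± 0.08 (SE, adjusted p = 0.753). Rcn1 of the endoplasmic reticulum, Lgr4, an R-spondin receptor, and Mettl15, a mitochondrial rRNA methyltransferase, followed, with -0.23 ± 0.08, 0.15 ± 0.06 and 0.26 ± 0.11. All 5 lie within 10 Mb of Slc1a2. Of the 9 syn-line members under an unadjusted p of 0.05, 6 lie within 10 Mb, among 56 tested, and 3 beyond it, among 102 tested. In the gfap line the split was 1 and 4. Over all genes tested, 4.67% were under this p in the syn line and 2.99% in the gfap line. The median size of the log2 fold change in the syn line was 0.041 within 10 Mb and 0.060 beyond it. In the gfap line it was 0.052 and 0.058. No test of this split was made.

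In the gfap line Tyro3, a receptor tyrosine kinase, came first, with 118, 126 and 141 CPM in Cre-positive brains against 126, 144 and 170 CPM in Cre-negative brains and a log2 fold change of -0.19 ± 0.07 (SE, adjusted p = 1.00). Adal was the only member there whose genotypes did not overlap (0.633% of members, against 0.198% of all genes), with 16.7, 17.3 and 19.5 CPM in Cre-positive brains against 14.1, 16 and 16.4 CPM in Cre-negative brains. Its log2 fold change was 0.17 ± 0.07 (SE, adjusted p = 1.00) and that of the syn line -0.03 ± 0.07. Prrg4, Lrrc57 and Fsip1 followed, with -0.75 ± 0.30, 0.12 ± 0.06 and -0.88 ± 0.42. In the interaction Gjd2, which encodes the main neuronal gap junction protein, had the smallest p, at 0.45 ± 0.17 (SE, adjusted p = 1.00). Gjd2 had 3.97, 4.83 and 6.38 CPM in syn Cre-positive brains and 3.27, 4.2 and 4.59 CPM in syn Cre-negative brains. In the gfap line it had 4.33, 5.30 and 5.86 CPM in Cre-positive brains and 5.06, 5.71 and 6.65 CPM in Cre-negative brains. All 4 groups overlapped except syn Cre-negative with gfap Cre-negative, where Gjd2 fell by 0.53 ± 0.12 (SE, adjusted p = 0.00139).

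**Figure D5:**
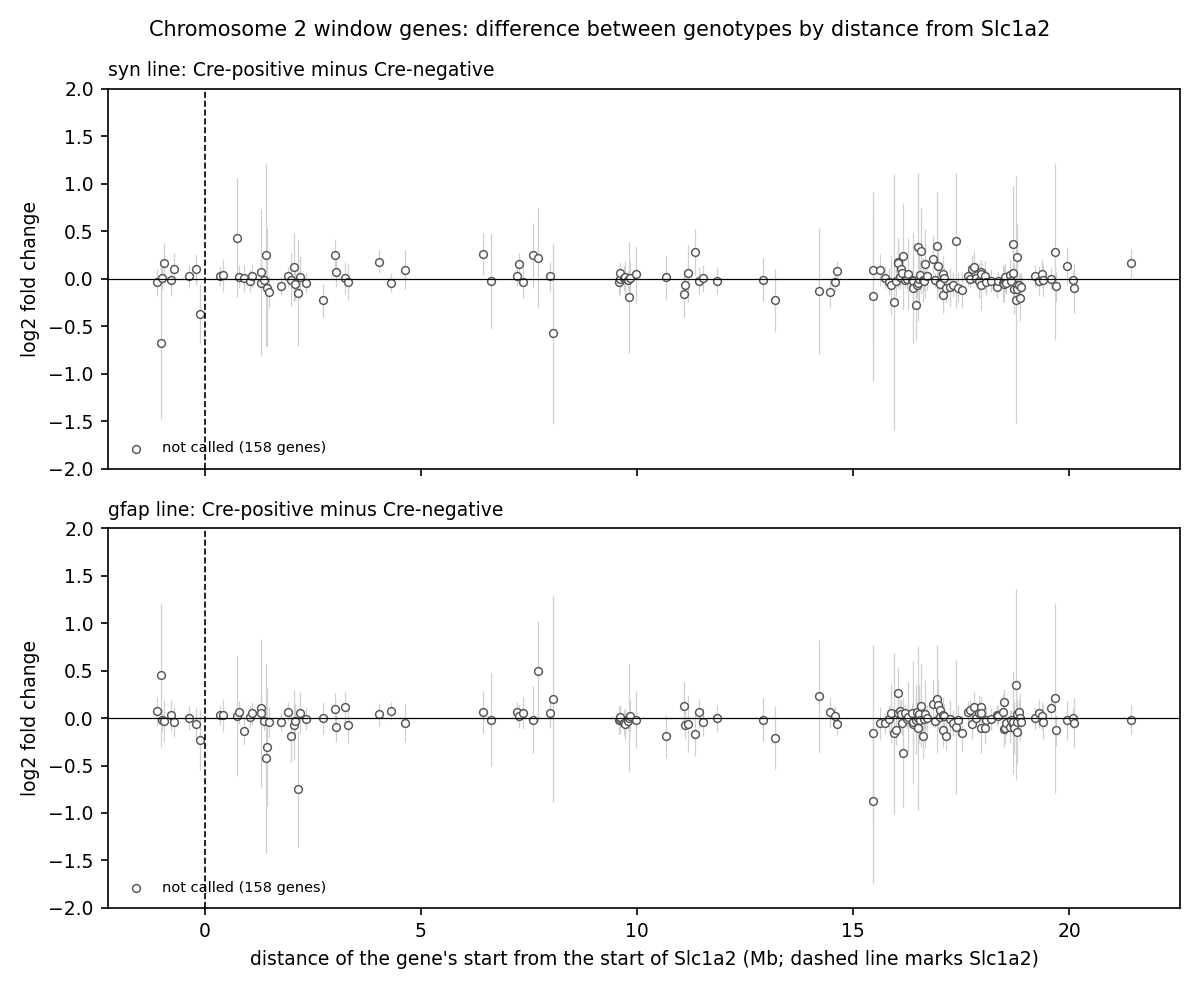
Log2 fold change of the 158 tested members, Cre-positive minus Cre-negative, in the syn line (top) and the gfap line (bottom), against the distance of each gene's start from the start of Slc1a2 in Mb. Bars are 95% intervals, no member passed an adjusted p of 0.05, and the points near Slc1a2 lie around the zero line as those farther away do.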

How the data were processed

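RNA of 24 mouse brains was sequenced, 6 in each of 4 groups. The authors deposited raw read counts per Ensembl gene, 1 file per library. The submitters' processing notes list mm10 and the tools HISAT2 (version not stated), HTSeq 0.6.0 and DESeq2 1.6.3, with no role or order. Reads with ambiguous or no gene stayed out of library sizes. Of 52636 identifiers, 99.7% were placed with GENCODE on GRCm38. The members, gene lists and tests were chosen with earlier results of these data known.

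Counts of all 24 libraries were fitted with edgeR 4.0.16 in R 4.3.3 (4 groups, TMM scaling, filterByExpr, robust quasi-likelihood F test). P values were adjusted by Benjamini-Hochberg over 19726 genes, with 0.05 as the threshold for a call. Alternatives were other scalings and filters, DESeq2 1.42.0, limma 3.58.1 with voom, the compared groups alone, a choroid plexus covariate, genes of every biotype and each library left out. Genes were named if they were among the 5 nearest to Slc1a2 on either side, called and at least 1.5-fold different in both line comparisons, among the 5 smallest p values in each direction of a line comparison or in a genotype comparison, or among the 4 most abundant of a list. Labels name each mouse as a separate sample but give no litter or preparation batch, so p values measure the spread between these samples.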

Additional observations from a re-analysis of the deposited data

Results flagged for a closer look

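In 14 of the 244 sets of 6 libraries examined (61 genes in 4 groups, 5.74%), 1 library stood apart from the other 5 of its group by Dixon's test, and chance alone flags about 1 set in 20. The flags fell in 8 libraries. The cause of each gap was not tested.

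In syn Cre-positive brains, Bub1b stood at 0.187 CPM in library 6, against 0.0541 to 0.084 CPM in the others. Gatm stood at 22.6 CPM in library 5, against 18.1 to 19.6 CPM in the others. Rasgrp1 stood at 628 CPM in library 5, against 693 to 718 CPM, and Spred1 at 123 CPM in library 6, against 146 to 157 CPM. In syn Cre-negative brains, Knl1 stood at 1.01 CPM in library 5, against 0.542 to 0.649 CPM in the others.

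In gfap Cre-positive brains, library 3 stood apart in 3 genes. It held Rtf1 at 114 CPM, against 101 to 104 CPM in the others, Mpped2 at 37.7 CPM, against 32.9 to 33.9 CPM, and Tyro3 at 141 CPM, against 118 to 126 CPM. Adal stood at 19.5 CPM in library 2, against 16.7 to 17.7 CPM, and Hipk3 at 87.5 CPM in library 4, against 98.1 to 104 CPM. In gfap Cre-negative brains, library 4 also stood apart in 3 genes, with Map1a at 1040.7 CPM against 1539.5 to 1733.9 CPM, Srp14 at 105 CPM against 70.9 to 81.2 CPM, and Trp53bp1 at 94.1 CPM against 114 to 123 CPM. Ano3 stood at 209 CPM in gfap Cre-negative library 3, against 149 to 167 CPM in the others.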

How the results depend on the processing

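Over all settings, each count of called members stayed within 1.5 times its value in the report. The number called was 51 to 75 in Cre-positive mice, 54 to 69 in Cre-negative mice and 42 to 56 in both. Genes of every biotype in the window gave 69, 73 and 57. The number was 0 in both genotype comparisons under every setting. It was also 0 in the interaction under the settings run for it, which leave out the compared groups fitted alone and genes of every biotype. With 1 library left out, the ranges were 52 to 68 in Cre-positive mice, 56 to 69 in Cre-negative mice and 46 to 51 in both. Of the 53 members called in both comparisons, 27 were called in both under all 33 settings, and 42 of the 53 remained with the choroid plexus covariate. The balance of directions in Cre-positive mice moved with scaling and filter, being 27 higher and 30 lower with RLE factors and 27 higher and 24 lower among genes with at least 1 CPM in 6 libraries. In Cre-negative mice it was 28 higher and 26 lower where those groups were fitted alone. Among 118 values of named genes, no setting reversed a called direction, and other settings ended 33 calls and added 14, while leaving out 1 library ended 63 and added 16. The cause was not tested. No paired analysis was possible because replicate numbers follow accession order and only name libraries. Taking the first number of the titles, whose meaning the labels do not give, as a random block gave a correlation of 0.0343. Members under 1 CPM rest on few reads, and the median 95% interval of a log2 fold change reached 0.16 to either side.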
